A study of Mus musculus with 6 samples.

Results

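The genes described here encode 10 proteins of the Z-disc and its relatives: the 4 alpha-actinins (Actn1, Actn2, Actn3 and Actn4), the 3 calsarcins or myozenins (Myoz1, Myoz2 and Myoz3), and Ldb3, Myot and Tcap. They were taken by symbol from the 37477 Ensembl genes of the deposited count table, where each symbol had 1 row. The set was selected on measured values of these libraries, the higher levels of Actn3 and Myoz1 in the knockout, so the differences of those 2 genes between genotypes are given as descriptions, without a test. Counts came from RNA sequencing of quadriceps of C57BL/6 mice aged 20 weeks. Wild-type (WT) mice, 3 libraries, were compared with MERKO mice, 3 libraries, whose estrogen receptor alpha was knocked out in muscle only (KO). No treatment is named for either genotype, and the sources used here do not give the driver of the recombination or the deleted exons. Nothing in the labels ties a library to a single animal, so the spread between libraries may be partly technical. Values of single libraries are listed below in the order of replicates 1, 2 and 3.

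The Z-disc is the border between neighbouring sarcomeres, the contractile units of striated muscle. Alpha-actinins are rod-shaped dimers that cross-link the actin filaments of both neighbours there. Actn2 is made in all skeletal muscle fibres and in heart, Actn3 in fast fibres, and Actn1 and Actn4 are the cytoskeletal forms of non-muscle cells. Calsarcins bind both alpha-actinin and the phosphatase calcineurin; Myoz1 and Myoz3 are the fast-fibre forms and Myoz2 the form of slow fibres and heart. Ldb3 (ZASP, also called cypher) carries a PDZ domain that binds alpha-actinin, Myot (myotilin) binds alpha-actinin and filamin, and Tcap (telethonin) ties together the ends of titin molecules.

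The libraries held 7388365 to 8560244 counts. In the libraries labelled KO, Esr1, which encodes estrogen receptor alpha, had 22, 16 and 16 counts, below the 50, 41 and 44 counts of WT. Its log2 difference was -1.45 ± 0.23 (SE), with an adjusted p of 0.145 in edgeR's quasi-likelihood test. The adjusted p of Esr1 was 0.000115 in edgeR's likelihood ratio test, 0.103 in DESeq2 and 0.187 in limma voom. It was 0.000152 in the authors' deposited table, whose exact test is not given. Which part of the gene these reads came from is not known here. Skeletal muscle markers were high in all 6 libraries: none of the 10 listed markers was at 0, and Acta1, skeletal actin, averaged 15500 ± 1732 CPM (SD, n = 3) in WT, CPM being counts scaled to a common library size. Of 14 heart markers 2, Myl7 and Nkx2-5, were at 0 counts in every library, where 0 allows up to 3 counts by counting error alone. Nppa, the atrial peptide gene, had 0 to 2 counts, but Myh6, the heart myosin that lies beside and closely resembles Myh7 and so has uncertain counts, averaged 2432 ± 268 CPM in WT (SD, n = 3). Per kilobase of exon, the slow myosin Myh7 was at 2520 ± 306 CPM in WT and the fast myosins Myh2, Myh1 and Myh4 at 1450 ± 14.3, 529 ± 86.1 and 50.4 ± 20.9 (SD, n = 3 each), so Myh7 was the most abundant of these 4 in muscle labelled quadriceps.

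Levels of different genes were compared per length, as CPM per kilobase of exon. In WT the order was Tcap, Myot, Actn2, Myoz2, Ldb3, Myoz1, Actn3, Actn4, Actn1 and Myoz3, a span from 2981 ± 206 CPM per kb for Tcap to 0.490 ± 0.098 for Myoz3 (SD, n = 3 each). The small, single-transcript Tcap stood 5.66 times above the next gene. Only the neighbouring pairs of Myot with Actn2, and of Actn2 with Myoz2, overlapped in their WT libraries, both because of the wide range of Actn2, 184.9 to 644.8 CPM per kb. In KO the order was the same except that Actn2, at 652 ± 50.7 CPM per kb, stood above Myot at 529 ± 41.2 (SD, n = 3 each), and no neighbours in the order overlapped. The 2 muscle alpha-actinins and the 2 cytoskeletal ones formed separate tiers: Actn4 was at 3.19 ± 0.204 and Actn1 at 1.32 ± 0.261 CPM per kb in WT (SD, n = 3 each), below Actn3 at 17.6 ± 5.77.

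**Figure D1:**
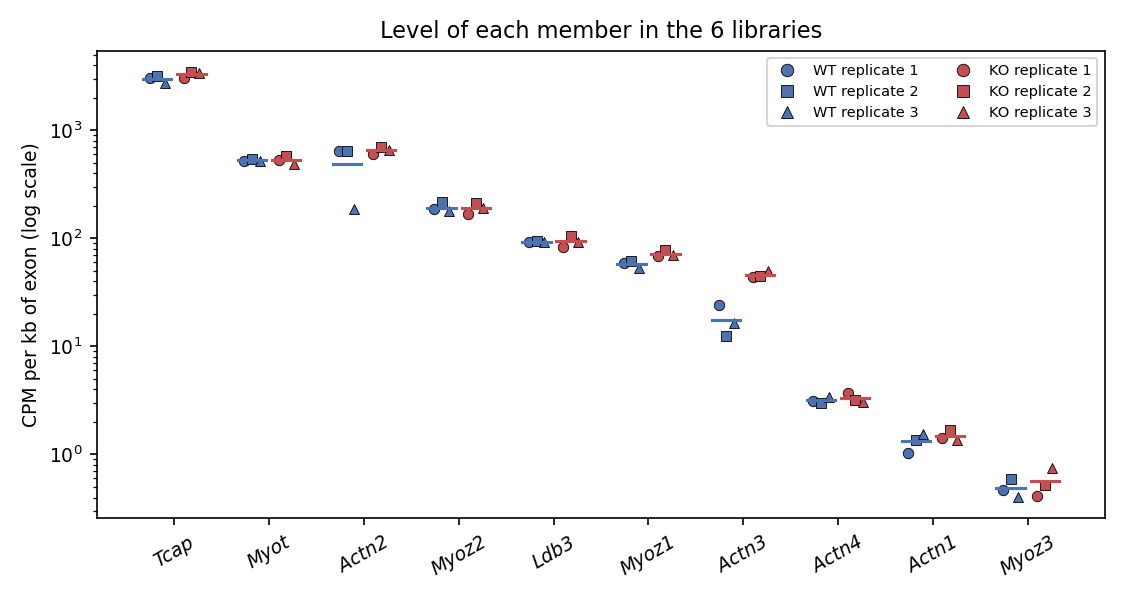
Each point is the level of a gene in 1 library, in CPM per kb of exon on a log axis, with WT in blue, KO in red, the replicate shown by the symbol and the group mean as a line. Tcap is highest and Myoz3 lowest in both genotypes, the KO points of Actn3 (43.6 to 49.6) lie above its WT points (12.6 to 23.9), and the WT replicate 3 point of Actn2 (184.9) lies far below the other 5.

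In edgeR's quasi-likelihood test over all 13848 genes 0 were called, 0% of those tested, so 0 of the 10 members were called; 590 genes had an unadjusted p below 0.05, and DESeq2 called 2 and limma voom 1. All KO libraries lay above all WT libraries for 2 members, Actn3 and Myoz1, the 2 that chose the set; among all genes tested the share was 4.96%. All KO libraries lay below all WT libraries for 0 members, against 5.45% of all genes. Of the other 8 members 7 had a KO mean above and 1 below WT by the fitted log2 difference, with adjusted p of 0.989 to 0.999 in edgeR's quasi-likelihood test. The median log2 difference of these 8 was 0.10, and 0.05 without WT replicate 3, beside -0.0024 over all genes tested with all libraries, of which 49.3% were higher. In the authors' deposited table the log2 fold changes of those 8 genes ran from -0.0093 for Myoz2 to 0.45 for Actn2, each with an adjusted p of 1.

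**Figure D2:**
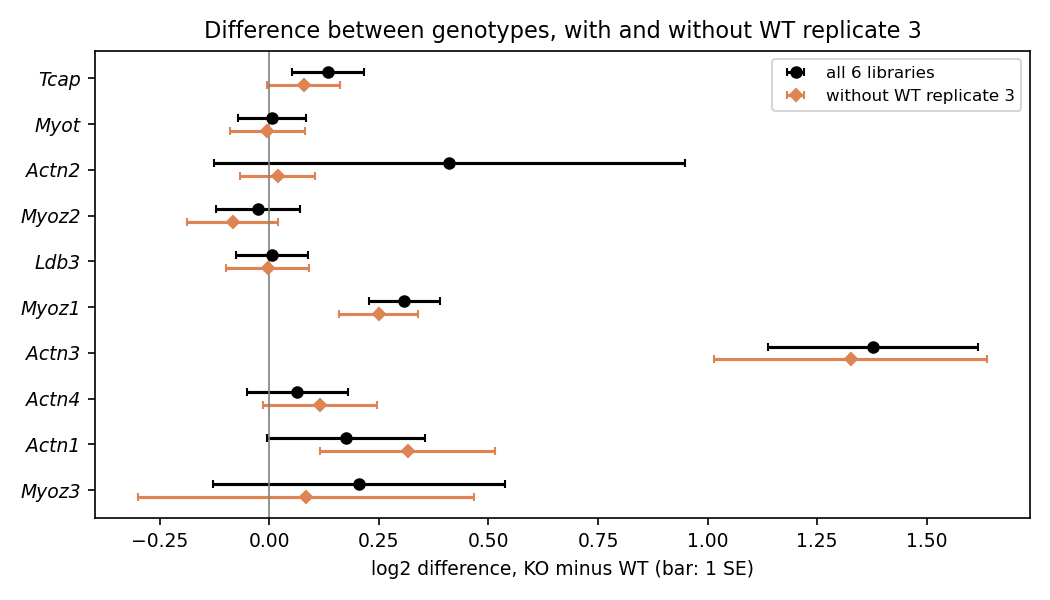
Each gene's fitted log2 difference of KO from WT is drawn with a bar of 1 SE, with all 6 libraries (black circles) and without WT replicate 3 (orange diamonds). Actn3 lies farthest to the right in both fits, and Actn2 moves from 0.41 to 0.02, with its SE shrinking from 0.54 to 0.09.

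Actn3, the alpha-actinin of fast fibres (ENSMUSG00000006457, minus strand of chromosome 19 from 4861216 to 4877909 in mm10), had 518, 267 and 375 counts in WT and 1068, 1065 and 1161 in KO. Scaled, these were 69.4, 36.5 and 47.5 CPM in WT and 126, 129 and 144 CPM in KO. The groups did not overlap, and the WT libraries were spread more widely than the KO libraries, with a coefficient of variation of 32.7% against 7.10%. Of the 10005 genes with a mean of at least 5 CPM, 98.6% had a smaller SD of log2 values among the WT libraries than Actn3, while 35.7% had a smaller SD among the KO libraries. The KO mean was 2.60 times the WT mean, a log2 difference of 1.38 ± 0.24 (SE), and the difference ran from 1.18 without WT replicate 2, the lowest WT library, to 1.66 without WT replicate 1, the highest.

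The genes whose pattern over the 6 libraries was most like Actn3 were mostly genes of fast fibres. Likeness was the root mean square gap between log2(CPM + 0.5) values centred on each gene's mean, ranked over 9749 genes with a symbol and at least 5 CPM; the median gap to Actn3 was 0.772. The 5 smallest gaps were those of Myh4 (0.353), the myosin heavy chain of type IIB fibres, Pvalb (0.354), the calcium buffer parvalbumin, Mybpc2 (0.371), the fast myosin-binding protein C, Mylk4 (0.482), a myosin light chain kinase family member, and Ift52 (0.494), an intraflagellar transport protein. Counts of Myh4 were 3293, 1417 and 2174 in WT and 4002, 3405 and 4744 in KO. Counts of Mybpc2 were 627, 326 and 456 in WT and 677, 848 and 946 in KO. Like Actn3, Myh4 and Mybpc2 had their lowest value in WT replicate 2 and their highest in KO replicate 3. These gaps include the difference between genotypes, so they describe a shared pattern and test nothing. Ranked by Pearson r over the same libraries instead, 0 of these 5 genes remained among the nearest 5, and with genes of at least 1 CPM 3 of the 5 did.

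**Figure D3:**
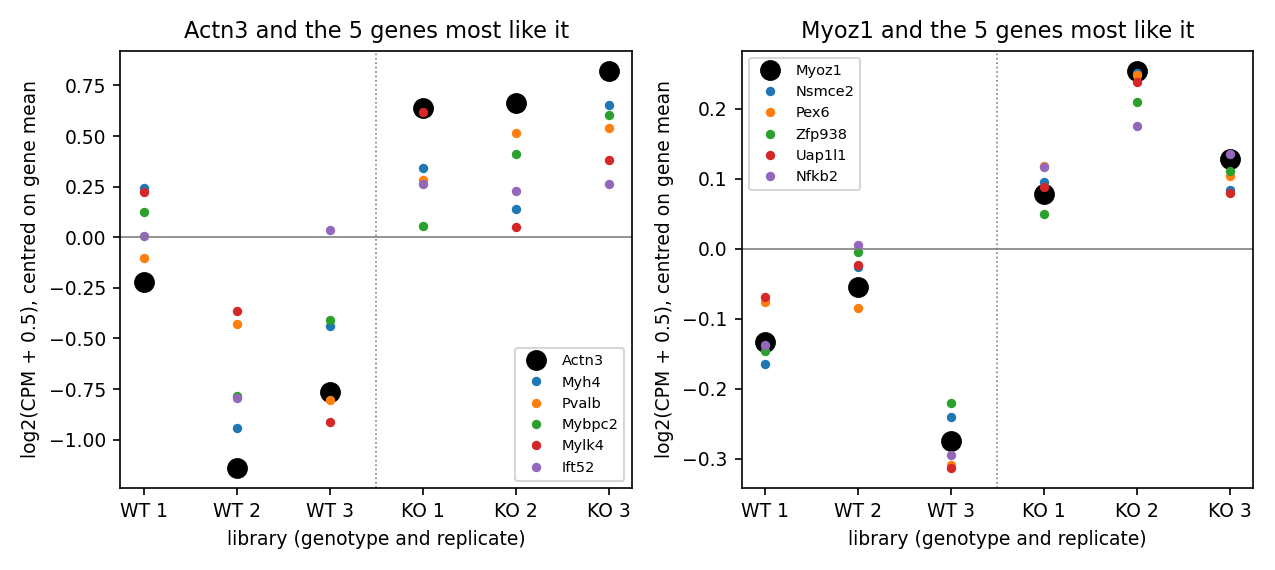
Points give log2(CPM + 0.5) centred on each gene's mean in the 6 libraries, for Actn3 (left, black) and Myoz1 (right, black) and the 5 genes with the smallest gap to each. Around Actn3, Myh4, Mybpc2 and Ift52 share its lowest point in WT replicate 2; around Myoz1 all 5 genes follow it with a root mean square gap of 0.0444 or less.

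The list of fast-fibre genes, which holds none of the members, had 16 genes. Of these 13 stood higher and 3 lower in KO, 0 were called, and the median log2 difference was 0.10. Pvalb was at 53.1 ± 12.9 CPM in WT and 97.2 ± 9.21 in KO, Myh1 of type IIX fibres at 3363 ± 547 and 4329 ± 347, and Myh2 of type IIA fibres at 10380 ± 102 and 9364 ± 329 (SD, n = 3 each). All KO libraries of Pvalb, Myh1 and Tnnc2 lay above WT, and all those of Myh2 lay below. These were 3 and 1 of the 16 genes, beside 4.96% and 5.45% of all genes tested. Tnnc2 was at 1577 ± 19.92 CPM in WT and 1708 ± 76.45 in KO (SD, n = 3 each). The summed fast-fibre level overlapped between genotypes, 24870 to 26030 CPM in WT and 25910 to 26560 in KO. This sum is not scaled by length, and its largest part is Myh2, which is among the 3 lower genes. The slow-fibre list had 8 genes higher and 8 lower of 16 tested, with a median of -0.0032 and 0 called. In it Pln, the inhibitor of the slow calcium pump, was at 51.2 ± 5.17 CPM in WT and 38.0 ± 5.02 in KO, and Tnni1, the slow troponin I, at 1309 ± 104 and 1472 ± 76.4 (SD, n = 3 each). All KO libraries lay below WT for 1 gene of this list, Pln, and above WT for 0. Sln, sarcolipin, was at 37.3 ± 14.8 and 52.5 ± 4.21 CPM, and Myh7b, a minor slow myosin, at 128 ± 13.1 and 121 ± 4.75 (SD, n = 3 each). In bulk RNA more fast fibres and more fast-fibre RNA per fibre cannot be told apart, and the part of fibre makeup in the values of Actn3 and Myoz1 was not tested.

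Actn2, the alpha-actinin of all muscle fibres (ENSMUSG00000052374, minus strand of chromosome 13 from 12269426 to 12340760 in mm10), was low in a single WT library. Its counts were 18175, 17895 and 5534 in WT and 19326, 22112 and 19907 in KO. The corresponding levels were 2435, 2447 and 701.5 CPM in WT and 2287, 2672 and 2465 CPM in KO. WT replicate 3 thus held 0.307 times the level of the lowest other library, while the remaining 5 lay between 2287 and 2672 CPM. Of the 10005 genes with at least 5 CPM, 99.9% had a smaller SD of log2 values among the WT libraries. The log2 difference between genotypes was 0.41 ± 0.54 (SE; 95% interval from -1.05 to 1.87; adjusted p = 0.993 in edgeR's quasi-likelihood test). Without WT replicate 3 it was 0.02 ± 0.09 (SE; adjusted p = 0.996 in the same test), so the higher KO mean of Actn2 rested on that library.

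No other member was the lowest of all libraries by as much in WT replicate 3. There Myoz1, Myoz3 and Tcap were the lowest of the 6 libraries too, but at 0.792, 0.735 and 0.859 times the mean of the other 5, against 0.285 for Actn2. Levels of Myoz2, Ldb3, Myot, Actn1, Actn3 and Actn4 in WT replicate 3 lay within the range of the other libraries. Summed over Actn2 and Actn3, the level of muscle alpha-actinin was 665, 657 and 201 CPM per kb in WT and 646, 748 and 699 in KO. In WT replicate 3 Actn1 was at 8.62 CPM and Actn4 at 20.9 CPM, the highest of the WT libraries in both, against 5.76 to 9.30 and 18.5 to 22.8 CPM in the other 5 libraries.

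The gene next to Actn2 was low in the same library, an observation made after the values were seen. Mtr, which encodes methionine synthase and lies 11.3 kb downstream of Actn2 on the same strand, had 192, 205 and 95 counts in WT and 214, 195 and 191 in KO. Its level in WT replicate 3, 12.0 CPM, was 0.511 times that of the lowest other library. On the other side Heatr1, a ribosome biogenesis factor 54.3 kb away, had 141, 125 and 171 counts in WT and 134, 171 and 155 in KO, and Lgals8, a galectin 98.7 kb away, had 212, 208 and 244 and 302, 249 and 228. Heatr1 and Lgals8 overlap at their ends, and the kit marks no strand, so reads there cannot be told apart. WT replicate 3 was the highest library for Heatr1 and second highest for Lgals8 by CPM. Of the 9 other measured genes within 2 Mb, WT replicate 3 ran from -0.61 for Ggps1 to 0.24 for Heatr1 as a log2 ratio to the mean of the other libraries, all 9 on the side of Actn2 away from Mtr. Whether the values of Actn2 and Mtr have a common source was not tested.

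**Figure D4:**
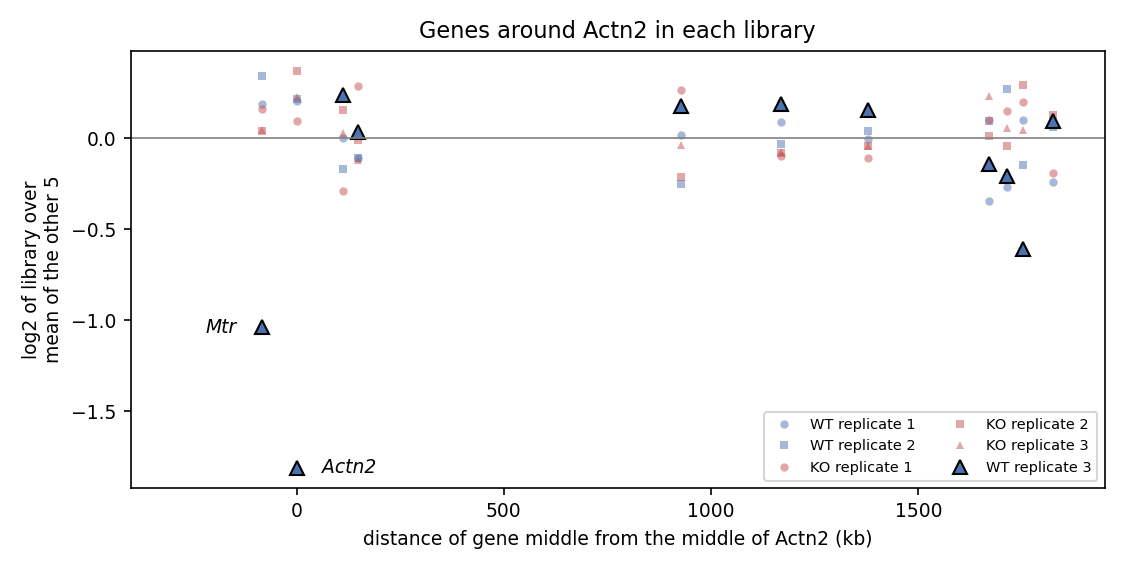
The x axis gives the distance of a gene's middle from that of Actn2 in kb, and the y axis the log2 ratio of a library to the mean of the other 5, for the 11 genes with a symbol and at least 5 CPM within 2 Mb. The large triangles of WT replicate 3 fall to -1.81 at Actn2 and -1.04 at Mtr and lie between -0.61 and 0.24 at the other 9 genes.

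Promoters from RefSeq (GRCm38.p6) cover 250 bases before to 50 after a start site and were matched for 5 of the 10 members: Actn1, Actn2, Actn4, Myoz2 and Ldb3. Those of Actn2 and Myoz2, the alpha-actinin and the calsarcin with the most RNA here, are shown 5′ to 3′ on the gene's strand. Both strands were searched for the E-box CANNTG, the estrogen response element GGTCANNNTGACC, the nuclear receptor hexamer AGGTCA (which can overlap the full element), the NFAT core GGAAAA, the TATA box as TATAAA, and the MEF2 site and the CArG box of SRF by name. Capitals mark every match, and no matches overlapped in these 2 promoters.
Actn2, chr13:12340683-12340982, minus strand: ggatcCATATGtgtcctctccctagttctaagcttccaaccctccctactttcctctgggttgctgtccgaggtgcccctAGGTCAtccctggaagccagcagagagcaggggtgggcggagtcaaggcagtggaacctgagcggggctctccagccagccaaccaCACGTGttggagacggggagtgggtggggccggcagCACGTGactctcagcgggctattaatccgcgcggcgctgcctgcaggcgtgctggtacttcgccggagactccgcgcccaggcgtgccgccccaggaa
Myoz2, chr3:123034938-123035237, minus strand: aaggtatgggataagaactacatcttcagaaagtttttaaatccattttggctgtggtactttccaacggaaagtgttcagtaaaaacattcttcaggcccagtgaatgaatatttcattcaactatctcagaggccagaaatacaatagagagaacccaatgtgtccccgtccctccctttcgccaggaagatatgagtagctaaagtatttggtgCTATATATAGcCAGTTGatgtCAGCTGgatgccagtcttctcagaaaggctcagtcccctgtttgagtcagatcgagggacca
The Actn2 promoter held 3 E-boxes, beginning at -245, -84 and -48 from the start site, and 1 hexamer at -170. E-boxes were in 72.3% and hexamers in 16.2% of 32544 promoters of the same length, so neither is rare. NFAT cores were in 23.3%, TATAAA in 13.6% and CArG boxes in 1.64%. The Myoz2 promoter held a MEF2 site at -33, found in 0.559% of promoters, followed by E-boxes at -22 and -12; MEF2 and the myogenic factors that bind E-boxes are known muscle regulators. A full estrogen response element was in 0.0707% of promoters and in 0 of these 2. These matches describe letters in a window and say nothing of binding.

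Alpha-actinins are alike in sequence, and reads from stretches that are the same in both cannot be told apart. Between the coding sequences of Actn2 (2685 bases) and Actn3 (2703 bases) in GENCODE M21 the longest identical run was 51 bases, shown in capitals with 24 bases of each gene on either side.
Actn2, coding bases 979 to 1077: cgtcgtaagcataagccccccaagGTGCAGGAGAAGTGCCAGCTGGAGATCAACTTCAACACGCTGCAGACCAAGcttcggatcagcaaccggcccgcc
Actn3, coding bases 997 to 1095: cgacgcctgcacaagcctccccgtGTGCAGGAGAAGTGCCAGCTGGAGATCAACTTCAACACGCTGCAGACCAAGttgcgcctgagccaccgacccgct
Of the 2654 windows of 50 bases in the Actn3 coding sequence 2, or 0.0754%, occurred in a transcript of another alpha-actinin, and for Actn2 it was 2 of 2636. Actn1 and Actn4 shared 65 bases at most, and 16 of 2630 windows of Actn1 occurred in the family. The 3 calsarcins shared at most 12 bases and 0 windows. Stretches that differ by a few bases were not searched, and read length and the handling of reads with several matches are not stated in those sources, so the extent of cross-counting was not tested.

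The balance of the 2 muscle alpha-actinins followed both genes. Actn3 made up 3.59%, 1.91% and 8.14% of Actn2 plus Actn3 per length in WT and 6.74%, 5.93% and 7.09% in KO. The means were 4.55% ± 3.22 in WT and 6.59% ± 0.596 in KO (SD, n = 3 each), and the groups overlapped because of WT replicate 3, where Actn2 was low. Without that library the WT mean was 2.75%. In each library Actn2 supplied most of the muscle alpha-actinin RNA per length. The share contains the Actn3 value that selected the set, so its difference between genotypes is a description, also with a library left out.

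Myoz1, calsarcin-2 of fast fibres (ENSMUSG00000068697, minus strand of chromosome 14 from 20649107 to 20656540 in mm10), had 832, 861 and 797 counts in WT and 1091, 1208 and 1080 in KO. These were 111, 118 and 101 CPM in WT and 129, 146 and 134 CPM in KO. The groups did not overlap, and the gap between the highest WT and the lowest KO library was smaller than the range within either group. The KO mean was 1.24 times the WT mean, a log2 difference of 0.31 ± 0.08 (SE), and without WT replicate 3, the lowest library, it was 0.25 ± 0.09. Its spread lay below the middle of all genes, with 46.0% of genes less variable in WT and 30.8% in KO.

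The 5 genes with the smallest gaps to Myoz1 were not on the muscle lists used here. With a median gap of 0.218 over the same 9749 genes, the 5 nearest were Nsmce2 (0.0294), a SUMO ligase of DNA repair, Pex6 (0.0359), a peroxisome import factor, the zinc-finger gene Zfp938 (0.0380), Uap1l1 (0.0394), related to UDP-sugar synthesis enzymes, and Nfkb2 (0.0444), a subunit of NF-kappa B. For Nsmce2 the counts were 85, 92 and 85 in WT and 116, 127 and 110 in KO. Small gaps are common for a gene with small differences, and 2 of the 5 remained when genes were ranked by Pearson r. The 5 genes had few counts, 45 to 158 per library, so counting error has a part in which genes came nearest. Their gaps also include the difference between genotypes that selected Myoz1, so they describe a pattern and test nothing.

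Myoz2, calsarcin-1 of slow fibres, held the largest share of calsarcin RNA. Its levels were 633, 735 and 606 CPM in WT and 567.5, 724 and 646 CPM in KO, and the groups overlapped; the log2 difference was -0.03 ± 0.10 (SE). Per length it made up 75.7%, 77.4% and 76.7% of the 3 calsarcins in WT and 70.7%, 73.1% and 72.5% in KO. Myoz1 made up the remainder, 24.1%, 22.4% and 23.2% in WT and 29.1%, 26.7% and 27.2% in KO, with all KO libraries above WT. The summed calsarcin level overlapped, 251 ± 24 CPM per kb in WT and 261 ± 27.4 in KO (SD, n = 3 each). The share of Myoz1 contains the value that selected the set and, like that of Myoz2, is a description. Myoz3, the other fast-fibre calsarcin, had only 12, 15 and 11 counts in WT and 12, 15 and 21 in KO, 0.194% ± 0.020 and 0.217% ± 0.065 of calsarcin RNA per length (SD, n = 3 each). At these counts its log2 difference of 0.21 had a 95% interval from -0.50 to 0.91.

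Ldb3 and Myot had narrow ranges among the WT libraries and wider ones among the KO libraries. Ldb3 was at 567, 577 and 561 CPM in WT and 511, 639 and 562 in KO, and Myot at 1150, 1194 and 1147 CPM in WT and 1160, 1264 and 1083 in KO. In both, the WT libraries lay inside the range of the KO libraries, with 2.5% and 6.31% of genes less variable in WT and 63.5% and 41.9% in KO. Their 95% intervals ran from -0.17 to 0.18 and from -0.16 to 0.17 log2 units. Tcap was at 2896, 2977 and 2606 CPM in WT and 2869, 3268 and 3167 in KO; the groups overlapped through KO replicate 1, and the log2 difference was 0.13 ± 0.08 (SE; adjusted p = 0.989 in edgeR's quasi-likelihood test). KO replicate 2 was the highest library for Ldb3, Myot, Tcap, Myoz1, Actn2 and Actn1.

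Actn4 and Actn1, which cross-link actin at adhesions and stress fibres of non-muscle cells, were near the lower end. Actn4 had 144, 135 and 165 counts in WT and 193, 163 and 152 in KO, and Actn1 43, 55 and 68 in WT and 67, 77 and 61 in KO. Both groups overlapped, with log2 differences of 0.06 ± 0.11 and 0.18 ± 0.18 (SE). Of the exonic bases of Actn4 5.16% lie also in Capn12, and of those of Actn1 8.15% lie also in the predicted genes Gm47766 and Gm47767. Beside them, 12 endothelial markers summed to 448 to 472 CPM in WT and 426 to 459 in KO, and 12 fibroblast markers to 1611 to 2154 CPM in WT and 1747 to 2018 in KO, with 0 of these 24 at 0 in any library. Another 10 smooth muscle markers summed to 370 to 405 CPM in WT and 367 to 404 in KO. The most abundant of each were Pecam1 at 91.2 ± 1.69 and 80.2 ± 6.43 CPM in WT and KO, Gsn at 931 ± 113 and 965 ± 126, and Synm at 232 ± 18.8 and 247 ± 6.01 (SD, n = 3 each). Median log2 differences were -0.08 for the endothelial, 0.0096 for the fibroblast and -0.05 for the smooth muscle list. They were 0.13 for the macrophage list (8 of 12 tested higher, Lyz2 most abundant at 44.8 ± 7.21 and 49.9 ± 4.24 CPM), 0.23 for the adipocyte list (8 of 10, Car3 at 2135 ± 450 and 2511 ± 363), -0.14 for the nerve list (0 of 7, Pmp22 at 31.0 ± 4.25 and 28.2 ± 4.75) and -0.15 for the heart list (1 of 4), with 0 genes called in each. Within the adipocyte list Car3 was far above Adipoq, at 12.2 ± 3.73 and 14.9 ± 1.99 CPM in WT and KO (SD, n = 3 each). Synm supplied most of the smooth muscle sum. Which cells made the RNA of Car3 and Synm cannot be told in bulk muscle. The part of the listed cell types in the values of the members was not tested.

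The other proteins of the Z-disc were divided in direction. Of 60 listed genes 58 were in the table and 57 were tested, with 26 higher and 31 lower in KO, 0 called, and a median log2 difference of -0.0088 beside -0.0024 over all genes. Of the 57, all KO libraries lay above WT for 1 gene and below for 1, beside 4.96% and 5.45% of all genes tested. The gene above was Fhod3, a formin that builds sarcomeric actin filaments, at 35.5 ± 1.86 CPM in WT and 42.7 ± 7.24 in KO (SD, n = 3 each). The gene below was Pdlim7, at 32.3 ± 1.96 and 29.7 ± 0.608 CPM (SD, n = 3 each). Mypn, myopalladin, was at 73.7 ± 4.64 and 65.8 ± 2.49 CPM, Murc (cavin-4) at 108 ± 13.4 and 94.9 ± 10.95, and the adhesion protein Tln2 at 148 ± 13.8 and 164 ± 8.16 (SD, n = 3 each). Ttn, the titin that Tcap binds, was at 157500 ± 15190 and 140300 ± 10990 CPM, with overlapping groups. Without KO replicate 2 the list had 17 genes higher and 40 lower. In that library Csrp3, the muscle LIM protein, which was named after its values were seen, had 6075 counts, against 2104, 3131 and 3245 in WT and 1907 and 2836 in the other KO libraries. Nrap had 0 or 1 count per library and no value is drawn from it.

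The list of enzyme partners of these proteins was mixed in direction. Beside enzymes it holds the calcineurin inhibitors Rcan1 and Rcan2 and the calcineurin subunit Ppp3r1. Of its 19 genes, all tested, 12 stood higher and 7 lower in KO, 0 were called, and the median was 0.01 log2 units. Calcineurin, the phosphatase that calsarcins hold at the Z-disc, has catalytic subunits Ppp3ca, at 87.7 ± 7.90 CPM in WT and 76.1 ± 1.55 in KO, and Ppp3cb, at 42.9 ± 3.16 and 38.6 ± 0.526 (SD, n = 3 each). All KO libraries of both lay below WT, while all KO libraries of its inhibitor Rcan1, at 118 ± 2.25 and 138 ± 8.72 CPM, lay above. Their unadjusted p in edgeR's quasi-likelihood test was 0.0237, 0.105 and 0.0097, and the adjusted p 0.989 for each. The other calcineurin subunits Ppp3cc and Ppp3r1 and the related inhibitor Rcan2 overlapped between genotypes, with log2 differences of -0.16, 0.01 and 0.0089. In the list all KO libraries lay above WT for 1 gene and below for 3, Pgm2 among the 3. Over all genes tested the shares were 4.96% and 5.45%. Pygm, muscle glycogen phosphorylase, which binds alpha-actinins, was at 645 ± 61.4 and 662 ± 7.14 CPM, the muscle fructose-bisphosphatase Fbp2 at 6.28 ± 1.62 and 7.67 ± 1.18, and the kinase Prkd1 at 7.44 ± 1.71 and 5.98 ± 1.01 (SD, n = 3 each). The groups overlapped for these 3.

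**Figure D5:**
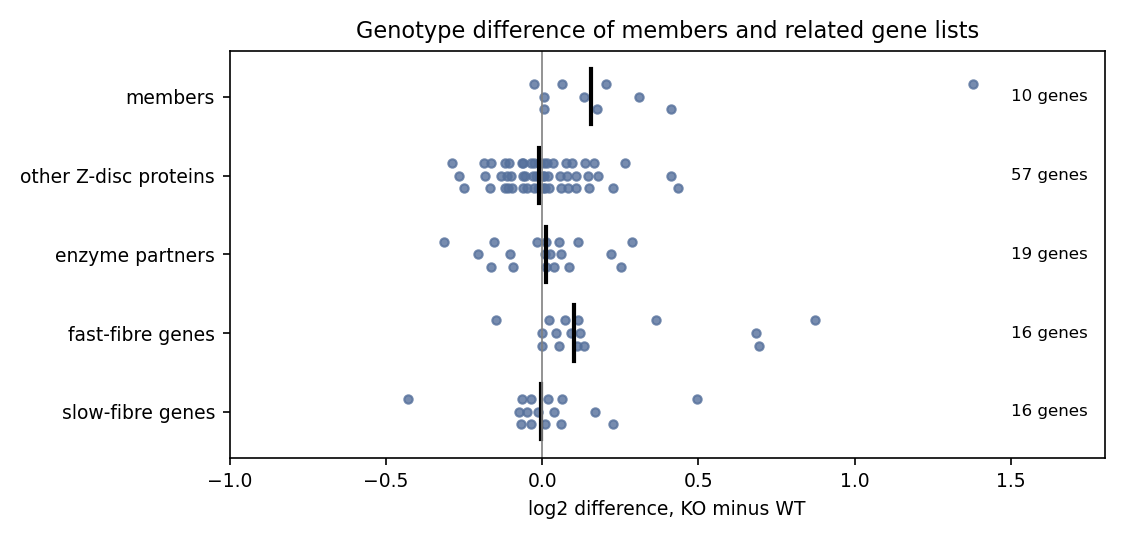
Each point is the fitted log2 difference of KO from WT of 1 gene, by list, with the list's median as a black line; vertical spacing within a list only separates the points. The line of the members, at 0.15, includes Actn3 (1.38) and Myoz1 (0.31), which were selected for being higher; those of the other Z-disc proteins, enzyme partners, fast-fibre and slow-fibre genes lie at -0.0088, 0.01, 0.10 and -0.0032.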

How the data were processed

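The data were RNA sequencing counts from 3 WT and 3 KO libraries of muscle labelled quadriceps, prepared with Trizol and a TruSeq RNA kit per the labels' protocols. The submitters' processing notes name edgeR, build mm10 and TopHat 1.3.3 with no role or order; the sources used here do not give the read counter or annotation. The deposited values are whole-number counts per Ensembl gene. The authors also deposited log2 fold changes with p-values, raw and adjusted, for each gene. Here, 29 repeated rows with identical counts were merged to 37477 genes. edgeR 4.0.16 in R 4.3.3 kept 13848 genes (filterByExpr), scaled them by TMM (factors 0.968 to 1.04) and tested genotype with the robust quasi-likelihood F-test, two-sided, Benjamini-Hochberg adjusted over all genes, threshold 0.05; the procedure was tested on simulated data. The SE is the log2 difference divided by the square root of F. CPM use TMM-scaled totals, and exonic lengths come from GENCODE M21 (GRCm38, as mm10). Replicates differed by more than sampling noise (chi-square per gene of 3.46 to 9.57) and were all counted. The members and lists were chosen with earlier results of these data known. Named were the 10 members, Esr1, up to 4 genes per list with the smallest unadjusted p, a fixed few (Pvalb, 4 myosins, Ttn, Pygm, Fbp2, Ppp3ca, Rcan1), the most abundant or absent markers of other cells, and the 5 genes most like Actn3 and Myoz1. Other genes of these lists, such as Rcan2, Pdlim7 and Adipoq, were named after values were seen. Alternatives were RLE, upper-quartile and no scaling, other filters, DESeq2 1.42.0, limma voom 3.58.1, edgeR's likelihood ratio test, a replicate block, leaving out each library, and the longest transcript as length. Depth limits Myoz3, Actn1 and Actn4 most; intervals of counts cover counting error only.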

Additional observations from a re-analysis of the deposited data

How the results depend on the processing

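No member was called with all libraries in edgeR's quasi-likelihood test. Genes called over all genes numbered 19 without a filter beyond 1 read, 2 in DESeq2, 1 in limma voom, 5 in edgeR's likelihood ratio test and 0 to 3 when a library was left out. Members called numbered 1 in DESeq2, in limma voom and in the likelihood ratio test, and 0 to 1 when a library was left out, the 1 being without WT replicate 1. The member was Actn3 each time; its higher KO level selected the set, so these calls support nothing. Leaving out a library turned the sign of 5 small, uncalled log2 differences, which ran from -0.0235 to 0.12 for Actn4, -0.11 to 0.0594 for Myoz2, -0.0545 to 0.39 for Myoz3, -0.0805 to 0.0794 for Ldb3 and -0.0515 to 0.0596 for Myot. For Actn2 it ran from 0.02 to 0.66, and for Actn1 from 0.03 to 0.32. The other Z-disc proteins had 17 to 32 genes higher and 25 to 40 lower when a library was left out, the lowest count of higher genes being without KO replicate 2. With the length of the longest transcript the share of Actn3 was 5.33% in KO, and that of Myoz3 was 0.136% in WT and 0.151% in KO. Of 20 levels per length 11 then moved by more than 1 SD. They rose, since a shorter length raises a level by construction, as for Myoz2 in WT from 192.1 to 272.7 CPM per kb. In WT Actn2 then stood above Myot. Under 3 other scalings 60 of 60 levels stayed within 1 SD.

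The labels state no pairing of the replicate numbers. Deviations from the group means correlated at -0.01, 0.23 and -0.02 for numbers 1, 2 and 3, and at -0.19 to 0.19 between unlike numbers. With 3 libraries per group these values cannot show whether the numbers pair the libraries. With the replicate number as a block 0 genes and 0 members were called, the other Z-disc list had 25 genes higher and 32 lower, and the log2 differences were 1.41 for Actn3, 0.31 for Myoz1 and 0.60 for Actn2.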

Other observations

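Few genes set a single library apart as Actn2 did. Of 10005 genes with at least 5 CPM, 3 in WT replicate 3 lay at least 2-fold below all 5 other libraries on the log2(CPM + 0.5) scale: Actn2, the predicted gene Gm1078 on chromosome 7 with 23 counts against 53 to 86 in the others, and Nlrc3, an immune regulator on chromosome 16, with 19 against 43 to 51. In KO replicate 1 there were 3 such genes, and in the other 4 libraries 0. Genes at least 2-fold above all others numbered 6 in KO replicate 1, 2 in WT replicate 1 and 1 in KO replicate 3. WT replicates 2 and 3 and KO replicate 2 had 0. The next 2 genes in WT replicate 3 were both on chromosome 13. They were Mtr, described above, and Nnt, the gene of the mitochondrial transhydrogenase, part of which is deleted in C57BL/6J mice. Nnt had 6518, 6167 and 2341 counts in WT and 4614, 7026 and 6852 in KO, so that KO replicate 1 was also lower, at 546 CPM against 843 to 873 CPM in the remaining 4 libraries and 297 CPM in WT replicate 3. The labels name the strain C57BL/6 for all 6 libraries. These genes were looked up after the values of Actn2 were seen, and no explanation was tested.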
